A study of Homo sapiens with 10 samples.

Results

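The histone deacetylases HDAC1 to HDAC10 remove acetyl groups from lysines of histones and other proteins, and their transcripts were followed through a time course of BRD9 degradation in synovial sarcoma cells. The 10 genes were chosen by name, through the Ensembl identifier that maps to each symbol, and are 10 of 63140 identifiers in the count table and 10 of the 16382 genes with enough counts to test. They were also chosen with earlier results of these libraries in view, namely that HDAC5 lay above DMSO at 12 h and below it at 96 h. The HDAC5 differences from DMSO, and the one between 96 h and 12 h, are therefore given below as a description, with no test. The only cells used were HS-SY-II, an established line of human synovial sarcoma. Cells received the DMSO vehicle or 100 nM WA-68, a PROTAC (a bifunctional molecule that brings its target to an E3 ubiquitin ligase for destruction) directed at BRD9, and were collected after 12, 24, 48 or 96 h of WA-68. There were 5 groups of 2 biological replicates, giving 10 libraries of poly(A) RNA, and the labels give no collection time for the DMSO cultures.

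HDACs fall into classes by sequence. Class I (HDAC1, HDAC2, HDAC3 and HDAC8) is mostly nuclear, and HDAC1 to HDAC3 act as the catalytic core of corepressor complexes: HDAC1 and HDAC2 in NuRD, SIN3, CoREST and MiDAC, HDAC3 in NCoR. Class IIa (HDAC4, HDAC5, HDAC7 and HDAC9) has little catalytic activity of its own, binds MEF2 transcription factors, and shuttles between nucleus and cytoplasm under the control of kinases and 14-3-3 proteins. Class IIb holds HDAC6, a cytoplasmic deacetylase of tubulin and HSP90, and HDAC10, a polyamine deacetylase. BRD9 is a bromodomain subunit of the non-canonical BAF remodelling complex, on which synovial sarcoma cells with the SS18-SSX fusion depend, and the fusion protein is known to engage HDAC-containing corepressors through TLE1.

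Counts assigned to genes ran from 7349744 to 13200051 per library. Of 8 synovial sarcoma markers all 8 had counts, with a summed level of 1097 to 1292 CPM (CPM are counts scaled to library size, here after TMM normalization), and SSX2 reached no more than 0.115 CPM. Of 5 leukocyte markers 3 had any count, with sums of 0 to 0.224 CPM and PTPRC and CD3E at 0, and of 5 endothelial markers 3 had any count, with sums of 0 to 0.196 CPM and PECAM1 and TEK at 0. BRD9 itself was measured at 104.1 ± 5.61 CPM (SD, n = 2) in DMSO and did not pass the edgeR test at 12, 24, 48 or 96 h (adjusted p = 0.479, 0.502, 0.29 and 0.0935), which concerns its transcript only. The second replicates of DMSO and of 96 h lay apart on the second principal component (-24.2 and -26.0, against -0.71 to 14.4 in the other 8 libraries). Across genes the difference between the DMSO replicates rose with transcript GC content (Spearman correlation 0.571, against -0.292 to 0.289 within the other groups). This touches the HDACs directly, as shown next, and the results of the HDACs are given with a GC correction beside the uncorrected ones, as are the counts of the partner lists.

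All 10 transcripts were detected in every library. Over the 10 libraries HDAC6 lay between 112 and 150 CPM, HDAC2 between 89.8 and 137, HDAC1 between 92.7 and 109, HDAC4 between 79.3 and 96.7, HDAC8 between 67.3 and 83.0 and HDAC7 between 57.5 and 89.8. HDAC5 lay between 42.1 and 83.9 CPM, HDAC3 between 41.1 and 55.0, HDAC10 between 12.6 and 22.0 and HDAC9 between 1.69 and 4.77. HDAC9 was the only member with few reads, at 17 to 44 counts per library. Its exact Poisson 95% interval, which covers counting error only, was 9.90 to 27.2 for the library with 17 counts and 31.97 to 59.1 for the library with 44. From its lowest to its highest library HDAC9 spanned a factor of 2.83, HDAC5 one of 1.99 and HDAC10 one of 1.74, while HDAC1, HDAC4 and HDAC8 spanned 1.17, 1.22 and 1.23.

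**Figure D1:**
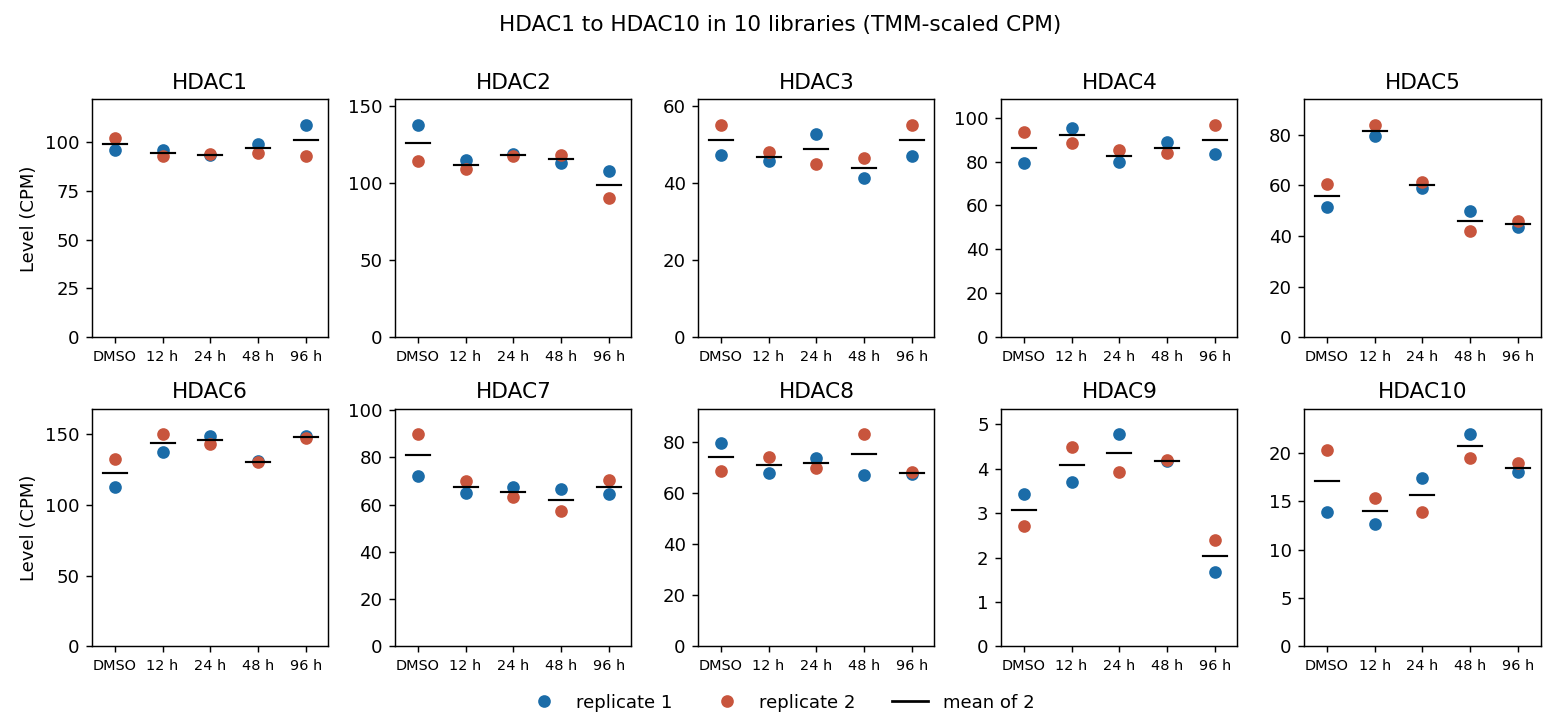
Level of each HDAC transcript in TMM-scaled CPM (vertical axis, from 0, own scale per panel) in the DMSO group and after 12, 24, 48 and 96 h of WA-68. Points are the 2 libraries of a group, coloured by replicate number, and black bars are their mean. HDAC5 peaks at 12 h (79.4 and 83.9 CPM) and is lowest at 48 and 96 h, and HDAC9 is lowest at 96 h.

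Levels of different genes can be compared only per length. In CPM per kilobase of annotated exon, the DMSO order was HDAC1 (24.99), HDAC6 (11.5), HDAC3 (11.03), HDAC7 (8.16), HDAC2 (8.14), HDAC5 (7.35), HDAC4 (6.45), HDAC10 (3.46), HDAC8 (3.22) and HDAC9 (0.182). The DMSO ranges of neighbours in this order were separate between HDAC1 and HDAC6, HDAC3 and HDAC7, HDAC4 and HDAC10, and HDAC8 and HDAC9. HDAC6 and HDAC3, HDAC7 and HDAC2, HDAC2 and HDAC5, HDAC5 and HDAC4, and HDAC10 and HDAC8 did not differ beyond their spread in DMSO. Over all 10 libraries only HDAC1 from HDAC6, HDAC4 from HDAC10 and HDAC8 from HDAC9 stayed separate. Exon lengths came from GENCODE release 29 and count every annotated exon, so HDAC2 (15461 bases) and HDAC8 (22986 bases), with long annotated transcripts, were scaled down more than HDAC1 (3963 bases).

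The 10 genes lie on 9 chromosomes, HDAC6 and HDAC8 both on X. In GRCh38, HDAC5 (ENSG00000108840) occupies chromosome 17, 44076746 to 44123702, on the minus strand, and no exon of another gene overlaps its exons. HDAC2 (ENSG00000196591) lies on chromosome 6, 113933028 to 114011308, minus strand, where an exon of the antisense gene HDAC2-AS2 overlaps it. HDAC7 (ENSG00000061273) lies on chromosome 12, 47782722 to 47833132, minus strand, overlapped on the plus strand by SLC48A1 and 2 unnamed transcripts. HDAC6 (ENSG00000094631; X, 48801377 to 48824982, plus strand), HDAC9 (ENSG00000048052; 7, 18086949 to 19002416, plus strand) and HDAC1 (ENSG00000116478; 1, 32292086 to 32333635, plus strand) have no exon overlap. HDAC3 (ENSG00000171720; 5, 141620876 to 141636870, minus strand), HDAC4 (ENSG00000068024; 2, 239048168 to 239401654, minus strand) and HDAC8 (ENSG00000147099; X, 72329516 to 72573199, minus strand) share exonic sequence with non-coding genes. HDAC10 (ENSG00000100429; 22, 50245183 to 50251405, minus strand) shares it with MAPK12 on the same strand. The strand setting of the counting is not given in the sources used here, so for the 6 overlapped members, HDAC2 and HDAC7 among them, reads of a neighbour cannot be told apart with certainty.

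Across the 10 members, the difference between the 2 DMSO replicates followed GC content closely. Replicate 2 was higher than replicate 1 by 0.54 on the log2 scale for HDAC10, the member richest in GC (66.9%), and by 0.31 for HDAC7 (57.7%). It was lower, at -0.27 for HDAC2 (38.2%), -0.31 for HDAC9 (40.2%) and -0.21 for HDAC8 (40.8%). The Pearson correlation over the 10 members was 0.964 (Spearman 0.915) in DMSO and 0.140 at 96 h, 0.244 at 12 h, -0.091 at 24 h and -0.688 at 48 h, descriptions over genes of the same 2 libraries. The median absolute replicate difference of the members was 0.236 in DMSO and 0.172 at 96 h, against 0.108, 0.086 and 0.127 at 12, 24 and 48 h. Every comparison with DMSO uses these 2 DMSO libraries, so the 4 comparisons are not independent of each other. The part of the GC difference in each result was not tested beyond the GC-corrected values given.

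**Figure D2:**
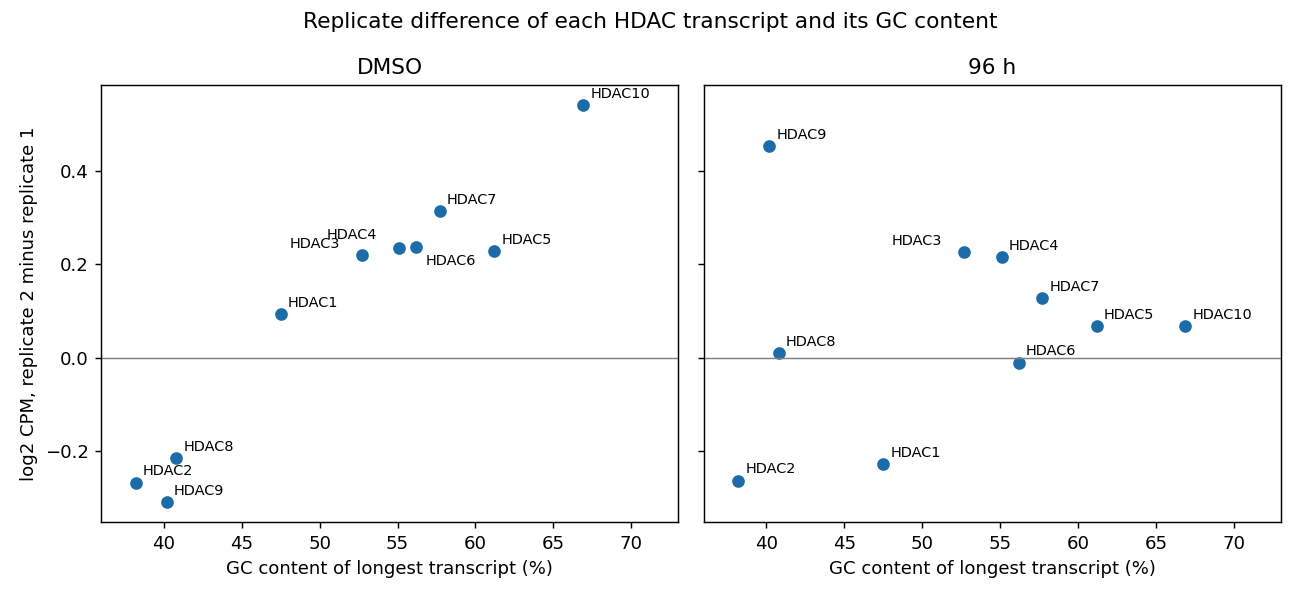
log2 difference in CPM between replicate 2 and replicate 1 (vertical axis) against GC content of the longest annotated transcript in percent (horizontal axis), for the DMSO group (left) and the 96 h group (right). Each point is an HDAC gene. In DMSO the points climb from HDAC2 and HDAC9 to HDAC10 (Pearson correlation 0.964), and at 96 h they do not (0.140).

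Few HDAC transcripts passed the edgeR test, which was Benjamini-Hochberg adjusted over all 16382 genes at 0.05. The choice of members used the differences of HDAC5 from DMSO and between 96 h and 12 h, so the counts of those comparisons are over the 9 other members. At 12 h 0 of 9 passed, where 3.15% of all genes did, with 2 at an unadjusted p under 0.05 (HDAC6 and HDAC7). At 24 h 0 of 9 passed, where 3.6% of all genes did, again with 2 at that unadjusted p. DESeq2 and limma-voom each called 0 of the 9 at both times. At 48 h HDAC7 passed, 1 of 9 against 9.39% of all genes, and at 96 h HDAC2 passed, 1 of 9 against 13.0%. Between 96 h and 12 h 0 of 9 passed, against 4.13% of all genes, with 2 at an unadjusted p under 0.05, and DESeq2 and limma-voom each called 0. Between 48 h and 24 h, a comparison the choice did not use, 0 of all 10 passed, against 0.757%, with 2 at an unadjusted p under 0.05, and DESeq2 and limma-voom each called 0. These shares are near the background, given that 1 member is more than 10% of the set of 9. The median log2 fold change of all 10 members was -0.07, -0.06, -0.01 and -0.07 at 12, 24, 48 and 96 h against DMSO, and the median of all genes lay between -0.01 and 0.00.

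With the GC correction the members called among these 9 were HDAC6 at 12 h (7.57% of all genes), HDAC6 and HDAC7 at 24 h (8.5%), HDAC7 at 48 h (15.2%), and HDAC2, HDAC6 and HDAC7 at 96 h (19.9%). Between 96 h and 12 h it was HDAC9 (9.08%), and of all 10 members HDAC5 was called between 48 h and 24 h (1.97%). Counting instead the members whose 2 treated libraries both lay outside the range of the DMSO pair, on the same side, gave 3, 4, 3 and 5 of the 9 at the 4 times. Among all genes 43.5%, 45.2%, 48.1% and 48.0% did so. Separation of 2 libraries from 2 is therefore common here, and the smallest exact permutation p for 2 against 2 is 0.333.

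**Figure D3:**
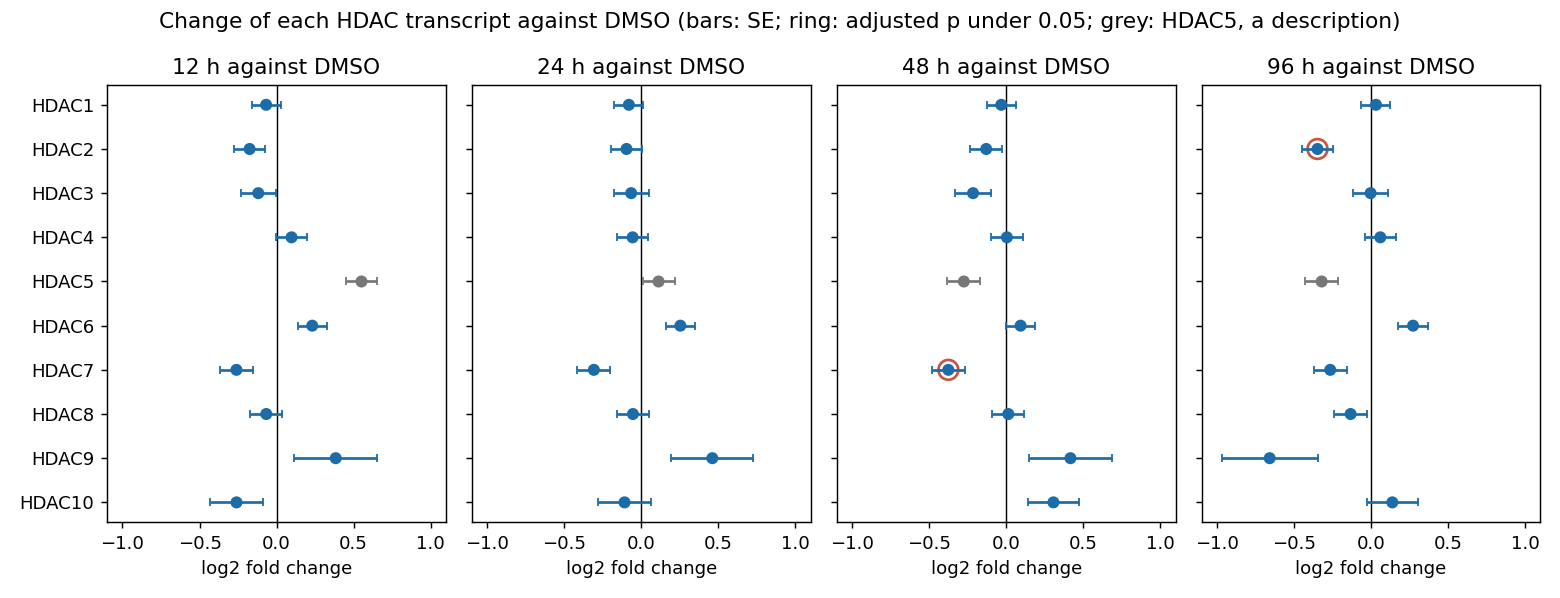
log2 fold change against DMSO (horizontal axis) of each HDAC transcript at 12, 24, 48 and 96 h, with bars of 1 SE from edgeR. Rings mark an adjusted p under 0.05, and HDAC5 is grey and has no ring because the choice of members used its values. Rings appear at HDAC7 at 48 h (-0.38) and HDAC2 at 96 h (-0.35), and most other points lie within 0.3 of 0.

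Among class I enzymes, HDAC2 was the member called. HDAC2 stood at 137 and 114 CPM in DMSO, 115 and 109 after 12 h, 118 and 118 after 24 h, 113 and 118 after 48 h, and 108 and 89.8 after 96 h. Both 96 h libraries lay under both DMSO libraries, and the DMSO pair was itself wide apart. At 96 h HDAC2 was lower than in DMSO by edgeR's test (log2 fold change -0.35, SE 0.10, adjusted p = 0.0259), and with the GC correction the value was -0.30 (adjusted p = 0.00284). The call was lost without DMSO replicate 1 (adjusted p = 0.26) or 96 h replicate 2 (0.256), with its log2 fold change between -0.48 and -0.21 when single libraries were left out. It was also lost, narrowly, without 12 h replicate 1 (0.051), 12 h replicate 2 (0.053) or 24 h replicate 2 (0.053). HDAC2 was not called at 12, 24 or 48 h (log2 fold changes -0.17, -0.10 and -0.13, adjusted p = 0.442, 0.706 and 0.497). Fewer cells carrying a transcript and less of it per cell cannot be told apart in these bulk libraries.

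HDAC1, the close paralog of HDAC2 and its partner in the same complexes, stayed within a narrow range. HDAC1 stood at 95.8 and 102 CPM in DMSO and 109 and 92.9 after 96 h, which overlap. Its log2 fold changes against DMSO lay between -0.08 and 0.03 (SE 0.094 to 0.095), none past the test (adjusted p = 0.798, 0.739, 0.888 and 0.873 at 12, 24, 48 and 96 h). The 2 paralogs can be set against each other within a library, which removes library scaling. It does not remove the GC difference between libraries, since HDAC1 has 47.5% GC and HDAC2 38.2%. The ratio of HDAC1 to HDAC2 counts was 0.697 and 0.895 in DMSO, 0.838 and 0.852 after 12 h, 0.787 and 0.799 after 24 h, and 0.881 and 0.799 after 48 h. At 96 h it was 1.01 and 1.03, above all 8 other libraries, and the 2 DMSO ratios differ by more than those of any treated group. The ratio reuses the HDAC2 values called at 96 h, so it is a description and not a separate result.

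HDAC3, the enzyme of NCoR, ran from 41.1 to 55.0 CPM with groups that overlapped except at 48 h. It stood at 47.2 and 55.0 CPM in DMSO and at 41.1 and 46.5 after 48 h, where its log2 fold change of -0.22 (SE 0.11) did not pass the test (adjusted p = 0.279). At 96 h it was back at 47.0 and 55.0 CPM. HDAC8, a deacetylase of the cohesin subunit SMC3, stood at 79.6 and 68.6 CPM in DMSO and at 67.6 and 68.1 after 96 h, just under the lower DMSO library, with log2 fold changes of -0.13 to 0.01 (SE 0.10 to 0.11) and adjusted p of 0.46 or more at every time. The summed level of the 4 class I transcripts was 350 ± 14.2 CPM in DMSO, 324 ± 0.50 at 12 h, 332 ± 8.48 at 24 h, 331 ± 15.1 at 48 h and 318 ± 17.98 at 96 h (SD, n = 2 each).

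In class IIa, HDAC5 stood at 51.5 and 60.4 CPM in DMSO. It stood at 79.4 and 83.9 CPM at 12 h, 59.2 and 61.2 after 24 h, 49.9 and 42.1 after 48 h, and 43.6 and 45.7 after 96 h. The 12 h libraries lay above all 8 others, the 24 h libraries straddled the upper DMSO library, and the 48 and 96 h libraries lay below both DMSO libraries. Described without a test, its log2 fold changes against DMSO were 0.55 (SE 0.10) at 12 h, 0.11 (SE 0.10) at 24 h, -0.27 (SE 0.11) at 48 h and -0.32 (SE 0.11) at 96 h, and 96 h against 12 h was -0.87 (SE 0.11), a 1.83-fold lower level. With the GC correction these were 0.59, 0.16, -0.22, -0.32 and -0.91. Leaving out single libraries gave 0.43 to 0.66 at 12 h and -0.44 to -0.21 at 96 h. These signs were part of the choice of HDAC5, so nothing is read from them.

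The comparison of 48 h with 24 h uses libraries that the choice of members did not, and there HDAC5 could be tested. The spread in the main fit still came from all 10 libraries, and the test was chosen with earlier results known. All 4 libraries were ordered the same way, both 48 h libraries (49.9 and 42.1 CPM) lying below both 24 h libraries (59.2 and 61.2 CPM). The log2 fold change was -0.39 (SE 0.11), a 1.31-fold lower level, with an unadjusted edgeR p of 0.00149 and an adjusted p of 0.119, which did not pass. The adjusted p was 0.00972 with the GC correction, 0.00563 with these 4 libraries alone, and 0.0319 or 0.0318 without replicate 1 or 2 of DMSO, and it reached 0.846 without 48 h replicate 2. The HDAC5 difference between 48 h and 24 h therefore passed or missed the threshold according to the fit.

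HDAC4, the closest class IIa relative with a level near that of HDAC5, stayed closer to its DMSO level. HDAC4 stood at 79.3 and 93.3 CPM in DMSO, 95.5 and 88.5 after 12 h, 79.7 and 85.4 after 24 h, 88.7 and 83.8 after 48 h, and 83.2 and 96.7 after 96 h, with every group overlapping DMSO. Its log2 fold changes of 0.10, -0.06, 0.00 and 0.06 (SE 0.10 each) did not pass the test (adjusted p = 0.708, 0.841, 0.986 and 0.759). Within a library the ratio of HDAC5 to HDAC4 counts was 0.650 and 0.648 in DMSO, 0.831 and 0.948 after 12 h, and 0.742 and 0.716 after 24 h. It was 0.562 and 0.502 after 48 h and to 0.524 and 0.473 after 96 h. The 2 DMSO ratios were nearly equal although the replicates differed in both genes, and the ratio was above DMSO in all 4 libraries of 12 and 24 h and below it in all 4 of 48 and 96 h. The ratio includes HDAC5, so it too is a description.

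HDAC7 was lower than DMSO in every treated library. It stood at 72.3 and 89.8 CPM in DMSO, 64.9 and 69.9 after 12 h, 67.3 and 63.1 after 24 h, 66.8 and 57.5 after 48 h, and 64.3 and 70.3 after 96 h. All 8 treated libraries lay below the lower DMSO library, which the higher DMSO library exceeded by more than any 2 treated replicates differed. At 48 h HDAC7 passed the edgeR test (log2 fold change -0.38, SE 0.11, adjusted p = 0.029, -0.31 and 0.00591 with the GC correction). At 12, 24 and 96 h its log2 fold changes of -0.26, -0.31 and -0.26 (SE 0.11 each) did not pass (adjusted p = 0.22, 0.12 and 0.11), and with the GC correction 24 and 96 h did (0.0214 and 0.00864) and 12 h did not (0.0545). The 48 h call was lost without DMSO replicate 2 (0.253) or 48 h replicate 2 (0.374), and narrowly without 12 h replicate 1 (0.055), 12 h replicate 2 (0.056) or 24 h replicate 2 (0.057). DESeq2 gave 0.057.

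The ratio of HDAC5 to HDAC7 counts, both rich in GC, contains the HDAC5 values that the choice used and is a description. It was 0.713 and 0.672 in DMSO, 1.224 and 1.201 after 12 h, 0.879 and 0.969 after 24 h, 0.747 and 0.732 after 48 h, and 0.678 and 0.651 after 96 h. Against HDAC7 the 96 h ratios thus overlapped the DMSO ratios, whereas against HDAC4 they lay below them.

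HDAC9, the remaining class IIa member, was the lowest of the 10. HDAC9 stood at 3.42 and 2.72 CPM in DMSO, 3.69 and 4.48 after 12 h, 4.77 and 3.91 after 24 h, 4.16 and 4.19 after 48 h, and 1.69 and 2.39 after 96 h. All 6 libraries of 12 to 48 h lay above both DMSO libraries and both 96 h libraries lay below them. Against DMSO none of its log2 fold changes passed (0.38, 0.46, 0.42 and -0.66, SE 0.27 to 0.31, adjusted p = 0.541, 0.407, 0.388 and 0.18). Between 96 h and 12 h the log2 fold change was -1.04 (SE 0.31, 2.06-fold lower) with an adjusted p of 0.055, which did not pass. That p was 0.0441 with the GC correction and ran from 0.0395 to 0.313 when single libraries were left out. Counting error is a large part of these values, since the 96 h libraries held 18 and 17 counts. The summed class IIa level was 226 ± 28.1 CPM in DMSO, 245 ± 2.31 at 12 h, 212 ± 1.85 at 24 h, 199 ± 15.6 at 48 h and 204 ± 15.7 at 96 h.

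In class IIb, HDAC6 was above DMSO at 3 of the 4 times without passing the test. It stood at 112 and 133 CPM in DMSO, 137 and 150 after 12 h, 148 and 143 after 24 h, 131 and 130 after 48 h, and 148 and 147 after 96 h. The 12, 24 and 96 h libraries all lay above both DMSO libraries, and the 48 h libraries lay between them. The log2 fold changes were 0.23, 0.25, 0.09 and 0.27 (SE 0.095 each), with edgeR adjusted p of 0.219, 0.155, 0.617 and 0.0592. With the GC correction HDAC6 passed at 12 h (0.25, adjusted p = 0.0277), 24 h (0.29, 0.0114) and 96 h (0.26, 0.00945). At 96 h DESeq2 (0.048) and limma-voom (0.041) also called it, while without DMSO replicate 1 its log2 fold change was 0.15 (adjusted p = 0.398).

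HDAC10 had the widest DMSO pair of the 10 on the log2 scale (a difference of 0.54). It stood at 13.9 and 20.3 CPM in DMSO, 12.6 and 15.4 after 12 h, 17.5 and 13.9 after 24 h, 22.0 and 19.5 after 48 h, and 18.1 and 18.9 after 96 h, so that every group overlapped DMSO. No comparison with DMSO passed (log2 fold changes -0.26, -0.11, 0.31 and 0.14, SE 0.17 each, adjusted p = 0.514, 0.815, 0.279 and 0.652). Among treated groups alone the DMSO pair plays no part beyond the shared spread. There both 48 h and both 96 h libraries lay above both 12 h and both 24 h libraries, by a small margin (18.1 against 17.5 CPM). The share of all genes separated in this way was not counted. The log2 fold change was 0.42 (SE 0.17, adjusted p = 0.492) from 24 to 48 h and 0.40 (SE 0.17, adjusted p = 0.224) from 12 to 96 h, neither past the test. The ratio of HDAC6 to HDAC10 counts was 10.9 and 9.72 after 12 h and 8.496 and 10.29 after 24 h, against 5.95 and 6.67 after 48 h, 8.20 and 7.76 after 96 h and 8.08 and 6.52 in DMSO. The summed class IIb level, mostly HDAC6, was 140 ± 18.8 CPM in DMSO, 157 ± 10.8 at 12 h, 161 ± 6.31 at 24 h, 151 ± 2.22 at 48 h and 166 ± 0.144 at 96 h. All 10 transcripts together made up 716 ± 32.7 CPM in DMSO, 726 ± 12.6 at 12 h, 705 ± 12.9 at 24 h, 681 ± 2.76 at 48 h and 689 ± 2.41 at 96 h.

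Genes with a course most like that of HDAC5 were sought among 11822 genes of at least 5 CPM, by the Pearson correlation of log2 CPM over the 10 libraries. The 5 highest were TKFC (0.956), a triose kinase, ILVBL (0.954), CENPP (0.945), a centromere protein, ABHD12 (0.942), a lipid hydrolase, and AKR1B1 (0.918), aldose reductase. Compared with DMSO, the rise of these 5 at 12 h was 0.17 to 0.28 on the log2 scale, smaller than that of HDAC5. The later falls were not all smaller. ILVBL had -0.29 at 48 h and -0.32 at 96 h, where HDAC5 had -0.27 and -0.32. HDAC5 was chosen with its course in view, so its larger rise is a description. TKFC had log2 fold changes against DMSO of 0.25 at 12 h and -0.23 at 96 h, and AKR1B1 of 0.28 and -0.22, against 0.55 and -0.32 for HDAC5. The correlations are the highest of many over 10 points that share libraries and are a description. No other HDAC was among them: HDAC9 had the highest correlation with HDAC5 (0.451), HDAC4 had 0.291, HDAC7 0.242, and HDAC10 the lowest (-0.593).

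**Figure D4:**
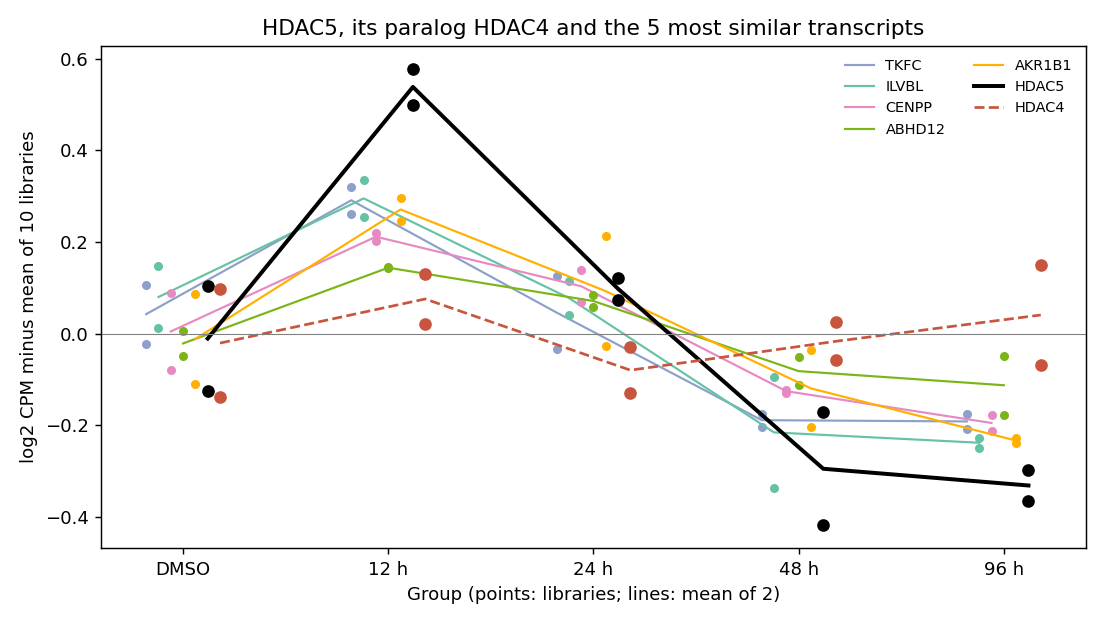
log2 CPM minus its mean over the 10 libraries (vertical axis) by group (horizontal axis) for HDAC5 (black), HDAC4 (dashed red) and the 5 transcripts most correlated with HDAC5. Points are libraries and lines join the means of 2. All 6 solid lines peak at 12 h and lie below 0 at 48 and 96 h, HDAC5 with the largest swing, while HDAC4 stays near 0.

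The partners of these enzymes were taken from lists by complex, written with earlier results of these libraries known. Their counts are from the uncorrected edgeR fit unless stated, which called 3.15%, 3.6%, 9.39% and 13.0% of all genes at 12, 24, 48 and 96 h. A GC-corrected fit called 7.57%, 8.5%, 15.2% and 19.9%. Of 13 NuRD subunits, 1 rose and 2 fell at 12 h, 1 rose and 1 fell at 24 h, 2 fell at 48 h and 1 rose at 96 h. The median log2 fold changes of the list were -0.15, -0.10, -0.16 and -0.10, with all genes near 0. CHD5, a chromatin remodelling ATPase, went from 38.98 ± 5.89 CPM in DMSO to 56.8 ± 0.227 at 96 h (log2 fold change 0.55, SE 0.11, edgeR adjusted p = 0.000981), a call that held without each library in turn. MTA1 fell from 184.9 ± 23.7 to 136.4 ± 0.139 CPM at 12 h (-0.44, adjusted p = 0.012), and GATAD2A from 278.2 ± 38.9 to 214.4 ± 17.8 CPM at 48 h (-0.37, adjusted p = 0.022). Without DMSO replicate 2 neither call remained, the MTA1 call was also lost without either 12 h library, and the GATAD2A call without 48 h replicate 2. These 3 genes made up all NuRD calls of the uncorrected fit against DMSO, and their calls at other times were each lost without at least 3 of the 10 libraries in turn. In the GC-corrected fit 5, 3, 5 and 5 of the 13 were called at the 4 times, CHD4, MBD3, MTA2, RBBP7, CDK2AP1 and RBBP4 being the further genes, all 6 named after their values were seen. The CHD5 value at 96 h was 0.55 with that correction (adjusted p = 2.18e-05).

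The other class I complexes changed in few members. Of 13 SIN3 subunits 1 fell at 96 h, SAP30 (14.2 ± 0.968 to 9.15 ± 1.23 CPM, log2 fold change -0.62, edgeR adjusted p = 0.0109), which was lost without DMSO replicate 1 or 96 h replicate 2 and was not called by DESeq2 (adjusted p = 0.0503). SIN3 had 0 calls at 12, 24 and 48 h, with 0, 0 and 1 at an unadjusted p under 0.05, and DESeq2 and limma-voom each called 0. The SIN3 counts were 0, 0, 0 and 1 after GC correction. Of 13 CoREST members RCOR2, a scaffold that holds HDAC1 or HDAC2 with the demethylase KDM1A, fell at all 4 times, from 60.0 ± 8.92 CPM in DMSO to 40.1 ± 0.0494, 39.2 ± 3.38, 39.5 ± 6.28 and 40.7 ± 2.52. Its log2 fold changes were -0.57, -0.61, -0.59 and -0.56 (edgeR adjusted p = 0.0077, 0.00424, 0.00268 and 0.00261). The 96 h call held without each library in turn, and those at 24 and 48 h were lost without replicate 2 of that time. The 12 h call was lost without DMSO replicate 2 or either 12 h library. At 96 h GSE1 also rose (0.27, adjusted p = 0.0362) and KDM1A also fell (-0.27, adjusted p = 0.0426), the latter named after its values were seen. The GSE1 call was lost in 8 of the 10 fits that left out 1 library, and the KDM1A call in all 10. After GC correction 1, 1, 3 and 4 CoREST genes were called at the 4 times. Of 7 NCoR genes ZBTB16, a transcription factor that recruits the complex, rose from 36.1 ± 1.74 CPM to 52.7 ± 0.154 at 48 h and 60.7 ± 8.40 at 96 h (0.55 and 0.74, adjusted p = 0.002 and 3.62e-05), and both calls held without each library. These were the only NCoR calls of the uncorrected fit against DMSO. In the GC-corrected fit ZBTB16 was called at all 4 times and TBL1X, named after its values were seen, at 96 h. Of 3 MiDAC genes tested 0 were called by the uncorrected fit in any comparison, with at most 1 at an unadjusted p under 0.05, and DESeq2 and limma-voom each called 0. TRERF1, named after its values were seen, was called in the GC-corrected fit at 12, 24 and 48 h (log2 fold changes -0.28, -0.24 and -0.25, edgeR adjusted p = 0.0227, 0.047 and 0.0249).

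The partners and regulators of class IIa enzymes gave a single call against DMSO in the uncorrected fit. Of 8 partners tested, the MEF2 factors among them, 1 was called against DMSO. It was CAMTA2 at 96 h (log2 fold change 0.32, edgeR adjusted p = 0.0492), which did not survive leaving out any of 9 libraries and was not called by DESeq2 (adjusted p = 0.115). It was also the only call in the GC-corrected fit. Of 16 class IIa kinases and 14-3-3 genes tested, 0 were called by the uncorrected fit at any time, with 1, 1, 3 and 2 at an unadjusted p under 0.05 at 12, 24, 48 and 96 h, and DESeq2 and limma-voom each called 0. The GC-corrected fit called PRKD1 at 48 and 96 h and YWHAG at 96 h, both named after their values were seen.

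Among HDAC6 partners and substrates, TPPP, a microtubule-binding protein known to inhibit HDAC6, rose at all 4 times. TPPP went from 68.9 ± 8.20 CPM in DMSO to 94.6 ± 6.996, 102.3 ± 1.33, 118.8 ± 9.20 and 123.4 ± 0.513 at 12, 24, 48 and 96 h. The log2 fold changes were 0.46, 0.58, 0.79 and 0.85 (SE 0.10 each, edgeR adjusted p = 0.0106, 0.00152, 2.31e-05 and 3.7e-06). The calls at 24, 48 and 96 h held without each library in turn, and the 12 h call was lost in 2 of the 10 such fits. HSP90AB1, whose protein is an HDAC6 substrate, fell from 1751 ± 44.6 CPM to 1406 ± 1.18 at 96 h (-0.32, adjusted p = 0.00839), and so held. In all, 2 of 11 genes of this list rose and 2 fell at 96 h, SQSTM1 and HSP90AA1 being the others, and at 48 h TPPP rose while HSP90AB1, TUBA1B and TUBA1C fell. That is 4 of 11 at either time, where 9.39% of all genes were called at 48 h and 13.0% at 96 h. Of the 10 fits that left out 1 library, 5 lost SQSTM1 and 8 lost HSP90AA1 at 96 h, and 7 lost TUBA1B, 3 lost TUBA1C and 2 lost HSP90AB1 at 48 h. DESeq2 did not call TUBA1B (adjusted p = 0.245). After GC correction 2, 2, 6 and 6 of the list were called at the 4 times. SQSTM1, HSP90AA1 and TUBA1B were named after their values were seen. Of 7 cohesin genes 1 fell at 48 h, SMC1A (-0.28, adjusted p = 0.032, which did not survive leaving out any of 7 libraries), and with the GC correction 3 were called at 48 h and 1 at 96 h.

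Of 10 polyamine genes, the pathway of the HDAC10 substrates, 3 fell at 96 h and none rose, and at 48 h the same 3 fell and PAOX rose, where 13.0% and 9.39% of all genes were called. The GC-corrected counts were 3, 3, 5 and 4 at the 4 times. Of the 48 h calls, SMS was lost in 8, ODC1 in 3, PAOX in 3 and SRM in 1 of the 10 fits that left out 1 library. DESeq2 called neither SMS nor PAOX at 48 h (adjusted p = 0.0747 and 0.0737). The median log2 fold change of the 10 was -0.18 at 48 h and -0.11 at 96 h. The 3 that fell at 96 h were ODC1, the rate-limiting decarboxylase, and the synthases SRM and SMS. ODC1 went from 165.9 ± 13.3 CPM in DMSO to 123.7 ± 4.32 at 96 h (-0.43, SE 0.094, edgeR adjusted p = 0.00299), which held without each library. SRM (-0.44, adjusted p = 0.0123) was lost without DMSO replicate 2 or 96 h replicate 1, and SMS (-0.38, adjusted p = 0.00666) without 96 h replicate 1.

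Calls of the uncorrected fit among the enzymes that add acetyl groups came at 48 and 96 h. Of 14 acetyltransferases KAT6B and NCOA3 rose and KAT2A fell at 48 h, and 5 rose (these 2 with NCOA1, NCOA2 and CREBBP) and none fell at 96 h, where the median log2 fold change of the list was 0.22. All genes were called at 9.39% at 48 h and 13.0% at 96 h, and with the GC correction 0, 1, 5 and 7 of the 14 were called at the 4 times, KAT2A being the 24 h call. At 12 and 24 h 0 were called, with 3 and 5 at an unadjusted p under 0.05, and DESeq2 and limma-voom each called 0. KAT6B went from 145.5 ± 2.81 CPM in DMSO to 207.9 ± 29.1 at 96 h (0.51, SE 0.098, edgeR adjusted p = 0.000837). NCOA3 went from 85.5 ± 3.02 to 117.3 ± 2.83 CPM (0.46, adjusted p = 0.000892) and NCOA1 from 130.1 ± 1.63 to 176.7 ± 15.5 CPM (0.44, adjusted p = 0.00202). These 3 calls at 96 h held without each library. Those of CREBBP and NCOA2 at 96 h were lost in 6 and 5 of the 10 fits that left out 1 library. At 48 h KAT2A was lost in 7, KAT6B in 5 and NCOA3 in 2, and KAT2A (edgeR adjusted p = 0.0497) was called by neither DESeq2 nor limma-voom. The genes PAOX, KAT2A, NCOA2 and CREBBP were named after their values were seen. Of HDAC11 and the 7 sirtuins, the remaining deacetylases, 0 of 8 were called by the uncorrected fit in any comparison, with at most 1 at an unadjusted p under 0.05, and DESeq2 and limma-voom each called 0. SIRT2, named after its values were seen, was called at 48 h in the GC-corrected fit (0.29, adjusted p = 0.0283). The synovial sarcoma marker SIM2 fell over the same course, from 67.5 ± 5.67 CPM in DMSO to 42.4, 40.5, 35.5 and 22.6 CPM. Of 7 such markers tested, SIM2 was the only one called against DMSO by the uncorrected fit. The median log2 fold change of these markers was 0.10 at 96 h. FZD10 went the other way, from 395.3 CPM in DMSO to 474.3 CPM at 96 h (0.26, edgeR adjusted p = 0.0532, not called). With the GC correction FZD10 was called at 96 h (0.24, adjusted p = 0.0244), as it was by DESeq2 and limma-voom. The part of SIM2 in the HDAC results was not tested.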

How the data were processed

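Poly(A) RNA of 10 HS-SY-II libraries was measured. The authors deposited 1 table of raw gene counts, whole numbers without normalization. Alignment to GRCh38 with STAR and counting with featureCounts are named in the submitters' processing notes, with trimming by Trim Galore and cutadapt. The sources used here do not give versions, annotation release, strand setting or the handling of multi-mapping reads. Groups came from the sample titles. The genes HDAC1 to HDAC10, the 15 gene lists (147 genes) and the tests were chosen with earlier results of these data known.

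Of 63140 identifiers, 62541 had a symbol in the gene name table. From the deposited counts, 16382 genes kept by filterByExpr were fitted in edgeR 4.0.16 (R 4.3.3) with 1 mean per group over all 10 libraries, TMM scaling (factors 0.960 to 1.03) and the quasi-likelihood F test. Calls required an adjusted p (Benjamini-Hochberg, per comparison) under 0.05. The model had 5 residual degrees of freedom and a biological coefficient of variation of 7.17%. SE is the log2 fold change over the square root of F. The p-values measure the spread between labelled biological replicates of 1 cell line. Depth of 7349744 to 13200051 counts per library limits precision mainly for HDAC9.

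Text names all 10 HDACs, up to 3 called genes per list with the smallest adjusted p (or the most abundant gene where none was called), and the 5 genes of at least 5 CPM most correlated with HDAC5; not every gene so chosen is described. Positions, exon lengths and GC content come from GENCODE release 29. Alternatives were other scalings, filters, DESeq2 1.42.0, limma-voom (limma 3.58.1), a replicate block, the 4 libraries compared alone, single libraries left out, and a GC offset (lowess of log2 counts on GC, span 0.3, for the 95.8% of tested genes with a GC value). On data simulated for 96 h against DMSO (16382 genes, 200 changed), 46% of 1.5-fold and 78% of 2-fold changes were recovered. The simulated replicates did not differ with GC content as the DMSO pair did, so these shares need not hold for the real libraries. The GC-corrected result of 1 gene of the NCoR list is not reported here.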

Additional observations from a re-analysis of the deposited data

Results flagged for a closer look

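HDAC5 lay on opposite sides of DMSO in different groups: both 12 h libraries lay above both DMSO libraries, and both 48 h and both 96 h libraries lay below them. The log2 difference of the group means from 12 h was -0.8278 at 48 h and -0.8692 at 96 h. No p is given for this difference, because the choice of genes used it.

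HDAC9 showed opposite sides too, with its 12, 24 and 48 h libraries above and its 96 h libraries below both DMSO libraries. The log2 differences of the 96 h mean were -1.0051 from 12 h, -1.0933 from 24 h and -1.037 from 48 h. The first missed the edgeR test (adjusted p = 0.055), and the others were not tested. Counting error is a large part of these differences, since the 96 h libraries held 18 and 17 counts. Separation from both DMSO libraries at a single time was seen in 43.5% to 48.1% of all tested genes. The share of genes on opposite sides at different times was not counted, for HDAC9 or for HDAC5 above.

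For 12 genes of the partner, acetyltransferase and marker lists the effect at 96 h differed from that at 12 h by the edgeR test of the difference itself. The lists hold 147 genes, not all of them tested, and were written with earlier results known. Of all tested genes 4.13% were called in this comparison. The log2 difference, 96 h minus 12 h, was -0.7636 for SAP30 and -0.8955 for SIM2. It was 0.3554 for PHF21A, 0.3035 for GSE1, 0.4201 for ZBTB16, 0.3836 for TPPP, 0.3543 for KAT6B and 0.3244 for NCOA3. It was 0.4793 for FZD10 and 0.3569 for SSX1, and -0.2986 for HSP90AA1 and -0.4435 for HAT1, the latter named after its values were seen. DESeq2 called neither HAT1 nor SSX1. Of the 12, SIM2 kept this call without each library in turn. GSE1, NCOA3, SSX1 and HAT1 each lost it in 8 of the 10 fits that left out 1 library, and KAT6B and HSP90AA1 in 7. TPPP lost it in 4 of these fits, PHF21A and ZBTB16 in 3, SAP30 in 2 and FZD10 in 1.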

How the results depend on the processing

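Of 1191 alternative values of the 9 HDACs other than HDAC5, 17 were classed as weaker than the uncorrected fit, 33 as stronger and 1141 as the same. None of them (0) reversed a call, and 68 changed sign in values that were not called. Of 1136 alternative values of the other named genes, in comparisons where they were called, 189 were weaker. Among the 9 HDACs other than HDAC5 the GC offset called 1, 2, 1 and 3 at 12, 24, 48 and 96 h against DMSO, and 1 for 96 h against 12 h. The uncorrected fit called 0, 0, 1, 1 and 0. Of all genes the GC offset called 7.57%, 8.5%, 15.2%, 19.9% and 9.08%, and the uncorrected fit 3.15%, 3.6%, 9.39%, 13.0% and 4.13%. For 48 h against 24 h, over all 10, the counts were 1 with the offset (1.97% of all genes) and 0 without it (0.757%). The counts that follow, here and in the next paragraph, are of all 10, HDAC5 included. Nothing is read from the share of HDAC5 in them except for 48 h against 24 h. Without replicate 2 of DMSO and of 96 h together the counts were 3, 1, 2 and 2 at 12, 24, 48 and 96 h, 2 for 96 h against 12 h and 1 for 48 h against 24 h. At 48 h 0 were called with upper-quartile scaling, library size alone, DESeq2 or the 4 libraries compared, and at 96 h 1 with library size alone, 1 with no filter and 0 with the 4 libraries. With no filter 2 were called for 96 h against 12 h, and with the 4 libraries 1 for 48 h against 24 h. Leaving out 1 library gave 0 to 2 HDACs at 12 h, 0 to 1 at 24 h, 0 to 2 at 48 h and at 96 h, 1 to 2 for 96 h against 12 h, and 0 to 1 for 48 h against 24 h. The cause was not tested.

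The labels number the biological replicates without saying whether equal numbers mark paired samples. Deviations of equally numbered samples correlated only from -0.123 to 0.186 over the 10 pairs of groups, highest for DMSO with 96 h. With a replicate block 1 HDAC of all 10 was called at 96 h (HDAC2), and the other counts were 1, 0, 1, 1 and 0. With the block and the GC offset 2, 2, 1 and 4 were called at the 4 times, 1 for 96 h against 12 h and 1 for 48 h against 24 h. With the 48 h numbers crossed, an alternative added after the data were seen, 1 was called at 48 h.

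Depth limited HDAC9 most, at 17 to 44 counts per library. With 2 libraries per group, and a DMSO pair that differed with GC content, changes of the size seen for HDAC6 or HDAC7 passed or missed the threshold according to the fit.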
